A study of Mus musculus with 8 samples.

Results

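Genes of ion channels were described in muscle satellite cells, the stem cells that repair skeletal muscle. Symbols of potassium channel (Kcn), voltage-gated calcium channel (Cacn) and voltage-gated sodium channel (Scn) genes were taken, with those of ryanodine receptors (Ryr), inositol trisphosphate receptors (Itpr), transient receptor potential channels (Trpc, Trpm, Trpv), the Clcn family, Piezo channels and Lrrc8 anion channel subunits. The rule used symbols only and found 183 of the 24328 symbols in the deposited table. Of these, 177 name a channel subunit. The other 6 match by spelling alone: Kcnq1ot1, a long non-coding RNA, Trpc4ap, a protein that binds a channel, and the antisense or overlapping symbols Kcnd3os, Kcnmb4os1, Kcnmb4os2 and Trpc5os.

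RNA of C57BL/6 mice aged 2 months was sequenced in 8 libraries, 2 for each of 4 groups. PFA-perfused cells came from Pax7-nGFP mice (a nuclear GFP reporter of Pax7) whose muscle was fixed by perfusion with paraformaldehyde before dissociation, and PBS-perfused cells from Pax7-nGFP mice perfused with buffer. Unperfused cells came from wild-type mice that were not perfused. Wild-type mice, also not perfused, gave the injury-activated cells, taken 2.5 days after injury. All were sorted as Vcam-positive cells without CD31, CD45 or Sca-1, and the fixed cells had a different RNA kit, so fixation and kit cannot be told apart. Between unperfused or injury-activated cells and PFA-perfused cells, genotype and perfusion differ as well and cannot be told apart from these either. Whether both libraries of a group stem from different mice is not given in the labels, and the p-values therefore speak only of library-to-library spread, which may be technical.

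Ion channels are membrane pores that set the resting potential of a cell and let calcium in or out of its stores. In muscle precursors potassium channels hold the membrane negative, and a more negative potential precedes the fusion of myoblasts. Calcium released through ryanodine and inositol trisphosphate receptors drives contraction in fibres and signalling in precursors, and Piezo channels open when the membrane is stretched.

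Values were read as FPKM, a fragment count corrected for how long the transcript is and how much was sequenced, a unit inferred from the values since the table names none, so levels can be set side by side between genes. No read counts were used here, so the depth behind a value is unknown. Differences are on the log2(FPKM + 1) scale, given ± SE, and understate changes at low levels. A gene is called where the limma p-value, adjusted by Benjamini-Hochberg over all genes tested, is under 0.05. Libraries of a group correlated at r = 0.972 to 0.997 across the 12515 tested genes. Total FPKM ran from 461454 to 582336 per library. Values were tested as deposited. Scaling by a trimmed mean of ratios moved the median difference of all genes from -0.50 to -0.04 (PBS-perfused against PFA-perfused), from -0.81 to 0.00 (unperfused against PFA-perfused), from -0.48 to 0.16 (injury-activated against PFA-perfused) and from 0.17 to 0.02 (injury-activated against unperfused). A difference is therefore followed by its scaled value where the call or the direction depends on it. In bulk RNA, fewer cells of a type and less RNA per cell cannot be told apart.

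Satellite cell markers were present in every group. The sum of their 9 markers, from 1419 FPKM in an injury-activated to 43370 in an unperfused library, was carried by Sdc4 in the unperfused libraries, with a group mean of 34234 there and 329 in fixed cells. In unperfused against fixed cells 4 of the 9 were higher (Sdc4, Myf5, Itga7 and Cxcr4) and 4 lower. Pax7, the transcription factor that marks the lineage, was measured at 328 and 567 FPKM with PFA perfusion, 48.3 and 79.6 with PBS perfusion, 19.8 and 20.4 without perfusion, and 4.59 and 4.40 after injury. Markers of other cells were also present. The 12 endothelial markers summed to 163 and 239.5 FPKM in PBS-perfused cells against 8.12 to 72.4 in the other libraries, and 10 of 11 tested were higher in PBS-perfused than in PFA-perfused cells. The 12 myofibre markers summed to 303 and 342 in injury-activated cells and to 50.2 to 188 elsewhere, and the 10 haematopoietic markers to 65.1 and 73.0 against 7.68 to 45.5.

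Most channel genes were hardly detected. Of the 183 members, 14 were at 0 in every library, 121 stayed below 1 FPKM in every library, and 54 (29.5%, against 51.4% of all genes) were tested because 2 or more libraries had at least 1 FPKM. The 8 between these limits reached 1 FPKM in 1 library only: Kcnv2, Kcnt1, Ryr2, Trpv4, Cacng7, Scn11a and Kcnk13 peaked at 1.04 to 1.99 FPKM, and Scn8a at 5.29 in an unperfused library with 0.702 in the other. A member that passed this filter through 1 group alone had to differ from the others, so the counts below hold for tested members only. Cacna1a, Kcna2, Kcnh2 and Ryr1 passed through PFA-perfused cells alone, Lrrc8b through PBS-perfused cells, and Kcnmb3 and Scn7a through unperfused cells. Kcnip3, Kcnj12, Kcnk2, Kcnn4, Kcnq5 and Lrrc8e passed through injury-activated cells alone. Calls of these genes that set that group highest follow from the filter and add no support of their own. Among the genes that did not pass were Kcnj2 (at most 0.192 FPKM in any library) and Kcnh1 (at most 0.0717), potassium channels known for the hyperpolarisation of fusing myoblasts, and Cacna1s (at most 0.0753), the calcium channel pore of muscle fibres. Cacna1h (at most 0.342), Kcna5 (0.776), Trpc1 (0.804) and Trpm4 (0.867) stayed under 1 as well.

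**Figure D1:**
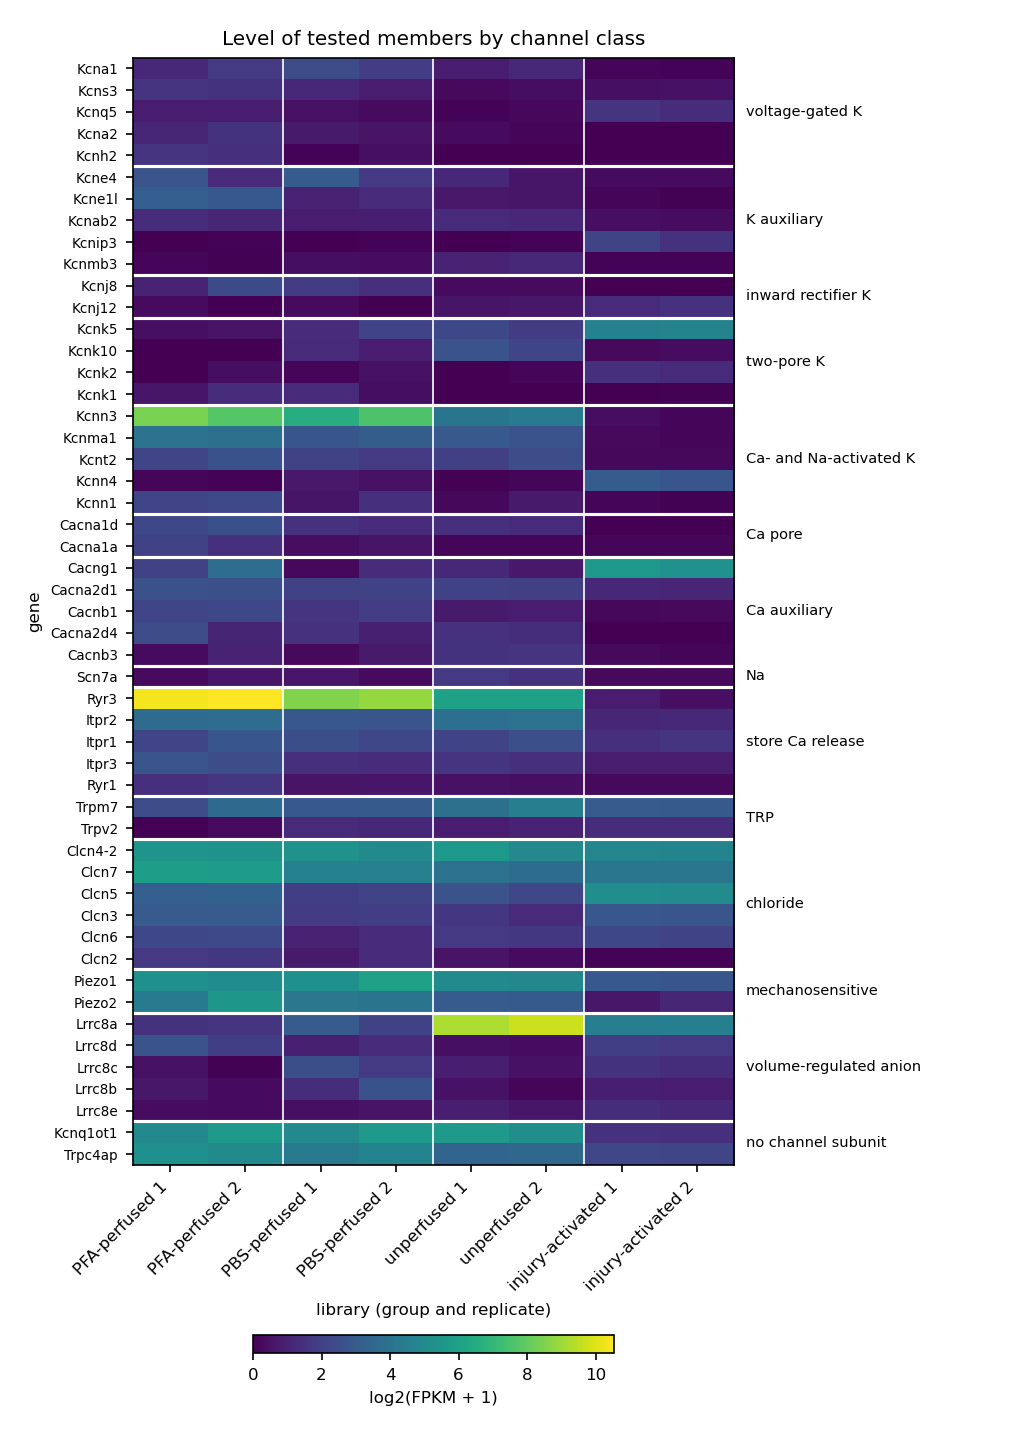
Level of the tested members (rows, by channel class; 3 of 54 are not shown) in the 8 libraries (columns), coloured by log2(FPKM + 1). Ryr3 and Kcnn3 are brightest with PFA or PBS perfusion, Lrrc8a is brightest in unperfused cells, and most other rows stay dark.

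A few genes made up most of the channel RNA. The 177 channel subunit genes summed to 1958 and 2050 FPKM in PFA-perfused cells, 695 and 891 in PBS-perfused, 876 and 1103 in unperfused, and 237 and 221 in injury-activated cells. Ryr3 alone held 66.1 and 72.1% of this sum in PFA-perfused cells and 53.6 and 51.5% in PBS-perfused cells, while Lrrc8a held 67.9 and 75.9% in unperfused cells. Without Ryr3, Kcnn3 and Lrrc8a the sums lay much closer, at 326 and 352, 221 and 238, 200.4 and 183, and 215 and 198 FPKM, listed by group as before. Most of the difference between groups in the summed level lay in those 3 genes, which were singled out after their values were seen.

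**Figure D2:**
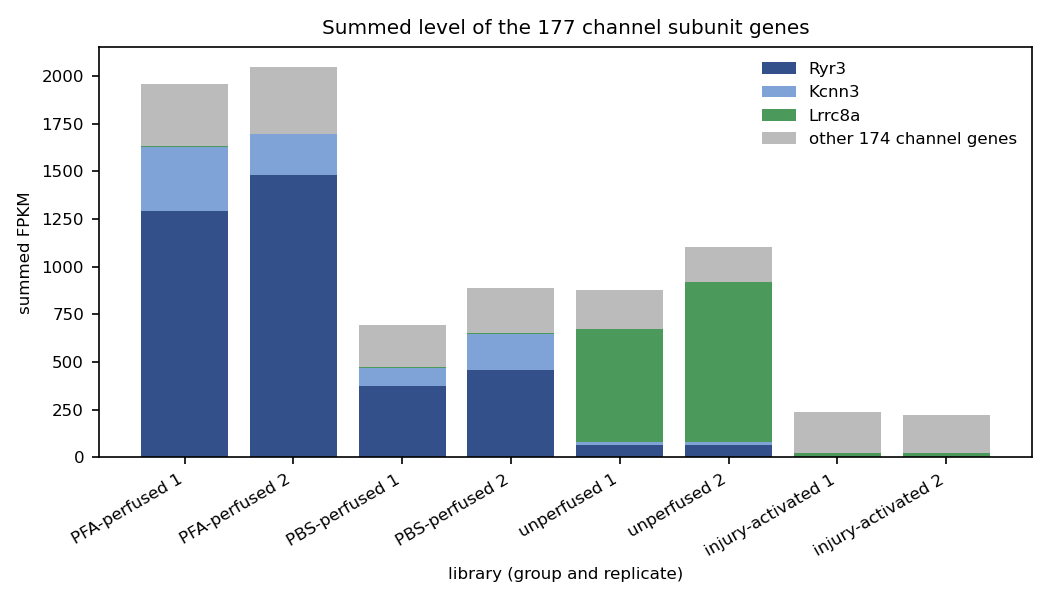
Summed FPKM of the 177 channel subunit genes in each of the 8 libraries, split into Ryr3, Kcnn3, Lrrc8a and all others. Ryr3 fills most of the bars of PFA-perfused and PBS-perfused cells, Lrrc8a those of unperfused cells, and the injury-activated bars are the shortest.

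Tested channel genes were called about as often as other genes in PBS-perfused and in unperfused cells. In PBS-perfused against PFA-perfused cells 34 of 54 members were called (63%, against 64% of all genes): 8 higher (14.8%, against 17.8%) and 26 lower (48.1%, against 46.2%), with 20 not called. In unperfused against PFA-perfused cells 39 were called (72.2%, against 73.6%), 10 higher (18.5%, against 17.4%) and 29 lower (53.7%, against 56.3%). After scaling, 53 members were tested. In PBS-perfused cells 23 were called (43.4%, against 54.8% of all genes), 9 higher (17%, against 27.5%) and 14 lower (26.4%, against 27.3%). In unperfused cells 33 were called (62.3%, against 68%), 16 higher (30.2%, against 34.3%) and 17 lower (32.1%, against 33.7%). As deposited, the shares of members thus lay close to those of all genes. After scaling fewer members than genes in general were called in PBS-perfused cells, by share. The 3 comparisons with fixed cells share the same PFA-perfused libraries, so they are not independent of each other.

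Injury-activated cells gave another split. Against unperfused cells, which share their genotype label and RNA kit, 39 members were called (72.2%, against 70% of all genes), 14 higher (25.9%, against 40.8% of all genes) and 25 lower (46.3%, against 29.3%), with a median of -0.43 against 0.17 for all genes. After scaling 38 were called (71.7%, against 73.9%), 12 higher (22.6%, against 38.8%) and 26 lower (49.1%, against 35%). Against PFA-perfused cells 44 were called (81.5%, against 73.5%), 12 higher (22.2%, against 26.1%) and 32 lower (59.3%, against 47.3%), with a median of -1.17 against -0.48. After scaling 43 were called (81.1%, against 73.2%), 14 higher (26.4%, against 40.9%) and 29 lower (54.7%, against 32.3%). In both comparisons falls took a larger share of the tested members than of all genes, a description for which no test of the list was made.

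**Figure D3:**
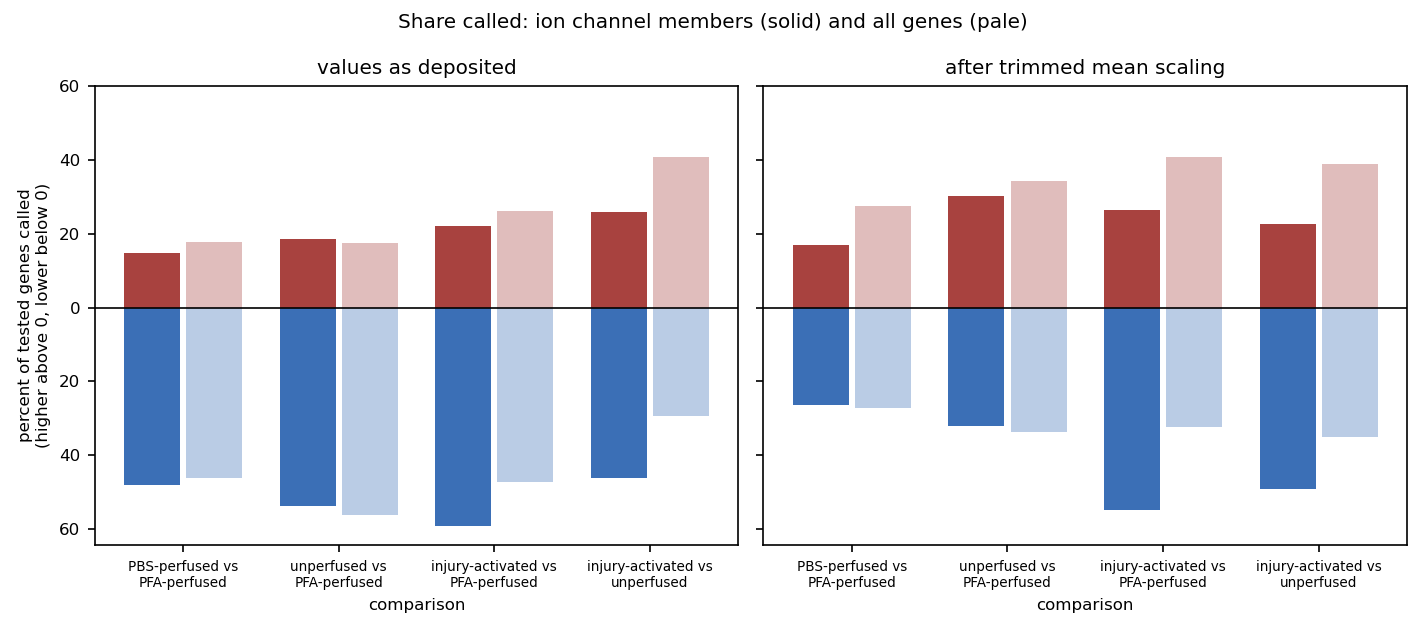
Percent of tested genes called higher (above 0) and lower (below 0) in the 4 comparisons, for the ion channel members (solid bars) and for all genes (pale bars), with values as deposited (left) and after trimmed mean scaling (right). Solid blue bars exceed the pale ones in both comparisons of injury-activated cells, where 59.3 and 46.3% of members were lower as deposited.

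Calcium release channels of the endoplasmic reticulum held the most abundant member. Ryr3, a ryanodine receptor that is minor in adult fibres, stood at 1293 and 1479 FPKM in PFA-perfused cells, 373 and 459 in PBS-perfused, 64.9 and 63.6 in unperfused, and 0.719 and 0.349 in injury-activated cells. The 4 groups do not overlap, and Ryr3 went from the 25th highest mean of 24328 symbols in fixed cells to the 10716th after injury. Differences were -1.74 ± 0.23 (PBS-perfused against PFA-perfused, limma adjusted p = 2.5e-04), -4.41 ± 0.23 (unperfused against PFA-perfused, adjusted p = 1.0e-06), -9.83 ± 0.23 (injury-activated against PFA-perfused, adjusted p = 1.5e-07) and -5.42 ± 0.23 (injury-activated against unperfused, adjusted p = 5.3e-07). Scaling gave -1.18, -3.34, -9.14 and -5.80, and each call was kept in all 12 alternatives run. Its neighbours in the table lay far lower than Ryr3 in uninjured muscle. These were Aven (0.315 to 0.562 FPKM) and Chrm5 (at most 0.056) on one side, and Tmco5b (0 throughout) and Fmn1 (up to 4.96, after injury) on the other. No exon of another gene overlapped Ryr3 in the annotation used.

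The other release channels were lower and less variable. Itpr2, an inositol trisphosphate receptor, stood at 12 and 12.7 FPKM in PFA-perfused cells, 6.36 and 5.85 in PBS-perfused, 13.4 and 14.8 in unperfused, and 1.21 and 1.27 in injury-activated cells. It fell after injury against both references (-2.58 ± 0.18 against PFA-perfused, -2.75 ± 0.18 against unperfused). It was also called lower in PBS-perfused cells (-0.91 ± 0.18; not called after scaling, -0.40), and was not called in unperfused against PFA-perfused cells (0.17 ± 0.18; called higher after scaling, 1.17). Itpr3 fell from 5.84 and 4.65 in PFA-perfused to 1.78 and 1.51 in PBS-perfused cells (-1.23 ± 0.18) and to 0.731 and 0.815 after injury (-1.81 ± 0.18). Itpr1 lay between 3.43 and 6.09 FPKM in all libraries of uninjured muscle and at 1.71 and 2.08 after injury. Its call against PFA-perfused cells (-0.97 ± 0.26) was lost after scaling (-0.35), without PFA-perfused replicate 2 (-0.65) and without injury-activated replicate 1 (-0.88). Its call against unperfused cells (-0.82 ± 0.26) was lost with no filter, without unperfused replicate 2 (-0.61) and without injury-activated replicate 1 (-0.73). Ryr1, the release channel of skeletal muscle fibres, fell from 1.69 and 2.18 in fixed cells to 0.204 to 0.554 in the other 6 libraries. It was not called in injury-activated against unperfused cells (-0.20 ± 0.14), a comparison in which 6 of 8 tested myofibre markers were higher and none lower.

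**Figure D4:**
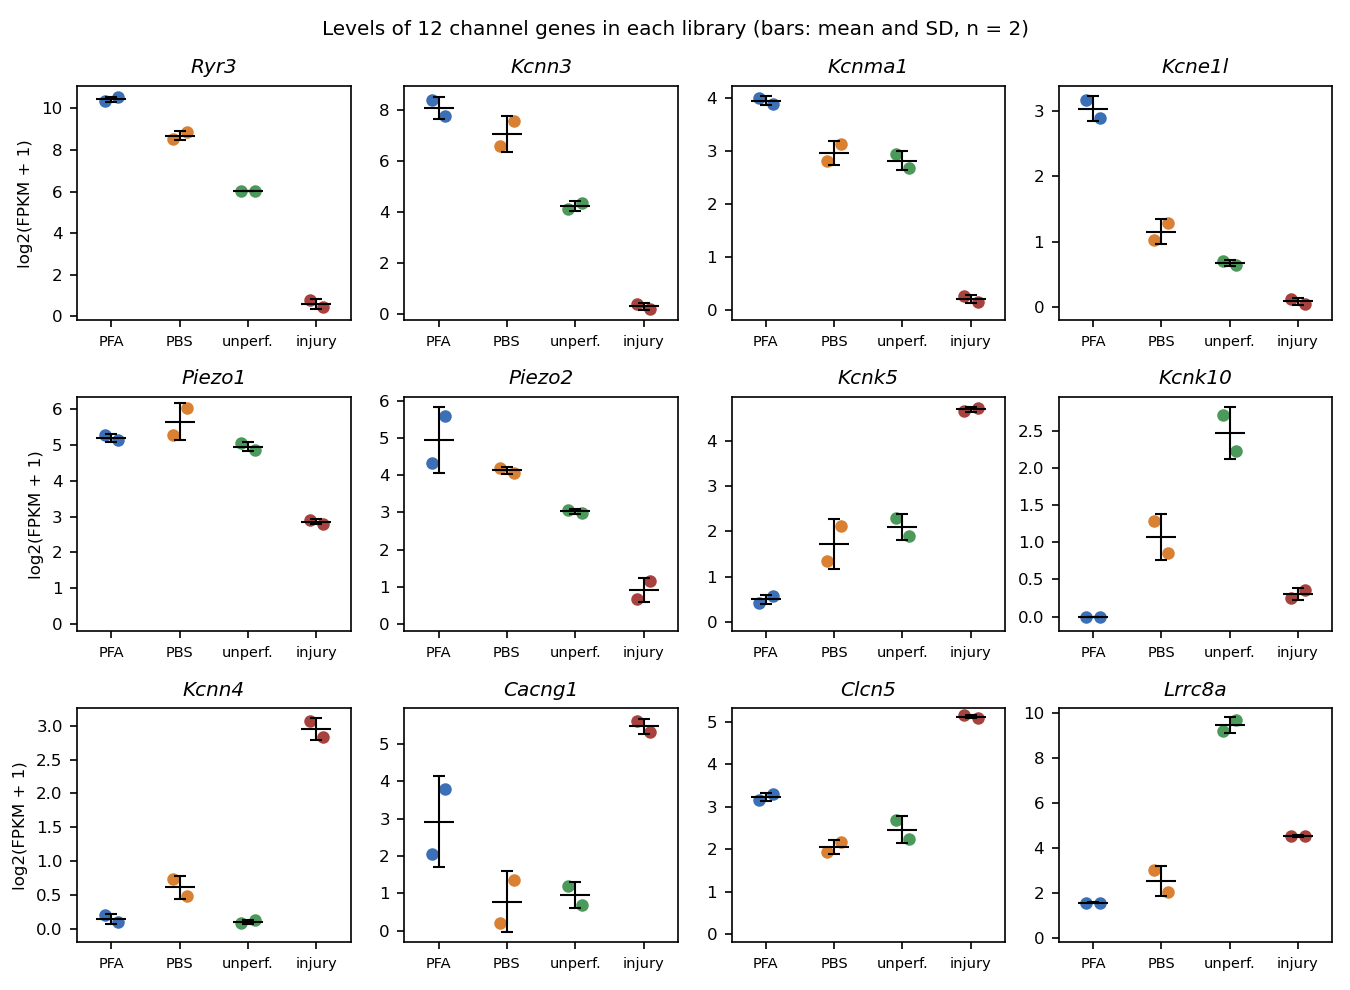
Level of 12 channel genes as log2(FPKM + 1) in each library (points; bars show mean and SD, n = 2; each panel has its own scale). Ryr3, Kcnn3, Kcnma1, Kcne1l and Piezo2 fall from the PFA-perfused to the injury-activated libraries, Kcnk5, Kcnn4, Cacng1 and Clcn5 are highest after injury, and Kcnk10 and Lrrc8a peak in unperfused cells.

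Potassium channels opened by calcium or sodium held members that fell and 1 that rose after injury. Kcnn3, a small conductance channel opened by calcium, stood at 336 and 217 FPKM in PFA-perfused, 94.0 and 190 in PBS-perfused, 16.1 and 19.6 in unperfused, and 0.294 and 0.138 in injury-activated cells. It fell in unperfused against PFA-perfused cells (-3.85 ± 0.34, adjusted p = 1.2e-05) and after injury (-7.80 ± 0.34 against PFA-perfused, adjusted p = 3.6e-07; -3.95 ± 0.34 against unperfused, adjusted p = 1.0e-05), in all 12 alternatives. The difference for PBS-perfused cells (-1.01 ± 0.34, adjusted p = 0.029) was lost after scaling (-0.45), with no filter, and without PFA-perfused replicate 1 (-0.69) or PBS-perfused replicate 1 (-0.50). Its relative Kcnn4, an intermediate conductance channel known for blood cells and proliferating cells, went the other way. Kcnn4 stood at 0.147 and 0.0697 FPKM in PFA-perfused, 0.664 and 0.404 in PBS-perfused, 0.0579 and 0.0908 in unperfused, and 7.35 and 6.14 in injury-activated cells, a rise of 2.85 ± 0.16 over unperfused cells (adjusted p = 1.1e-06) and 2.80 ± 0.16 over PFA-perfused cells (adjusted p = 8.1e-07). Kcnn4 passed the filter through the injury-activated libraries alone, so the direction of this rise was fixed by the filter. Its call in PBS-perfused cells (0.46 ± 0.16) was lost without either PFA-perfused library (0.51 and 0.41) and without PBS-perfused replicate 1 (0.34). The sum of the haematopoietic markers was also highest after injury, mostly from Lyz2 (42.9 and 44.0 FPKM). Of the 10 markers 6 were tested, with 5 higher and 1 lower against unperfused cells. Cd74 was highest in PBS-perfused cells (23.1 and 12.7) and Cd68 in unperfused cells (32.1 and 23.0). Ptprc, which encodes CD45, was at 0.203 and 0.250 FPKM after injury, and none of these markers was at 0 in that group. Their part in the rise of Kcnn4 was not tested.

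The promoters of both genes are shown from 250 bases before to 50 after the RefSeq start (GRCm38.p6, a later build than the mm9 of the deposited values). They were picked as related genes that moved in opposite directions after injury, though for Kcnn4 the filter fixed the direction. Capitals mark matches on either strand to TGGGAA, the core of sites bound by the Notch effector RBPJ, to CAGCTG, an E-box bound by MyoD, or to TGANTCA, the AP-1 site. The windows are chr3:89519914-89520213 on the plus strand for Kcnn3 and chr7:24370013-24370312 on the plus strand for Kcnn4.
Kcnn3: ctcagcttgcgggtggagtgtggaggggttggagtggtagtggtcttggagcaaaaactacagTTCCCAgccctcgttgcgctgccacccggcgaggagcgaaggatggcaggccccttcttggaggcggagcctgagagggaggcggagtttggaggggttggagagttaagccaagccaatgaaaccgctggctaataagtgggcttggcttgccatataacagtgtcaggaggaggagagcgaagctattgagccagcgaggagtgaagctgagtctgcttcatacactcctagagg
Kcnn4: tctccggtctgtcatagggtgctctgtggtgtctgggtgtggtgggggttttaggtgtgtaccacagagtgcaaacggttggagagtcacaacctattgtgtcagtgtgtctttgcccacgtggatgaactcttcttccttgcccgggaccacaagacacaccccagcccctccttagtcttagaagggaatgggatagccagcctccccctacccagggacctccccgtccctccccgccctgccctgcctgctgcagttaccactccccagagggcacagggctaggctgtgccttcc
The Kcnn3 window held 1 match to the RBPJ core, read on the other strand, and the Kcnn4 window none of the 3 motifs. The windows of Lrrc8a and Kcnk5, searched in the same way and not shown, held none either. Of 27025 promoters of this length in the table, 25.5% held TGGGAA, 16.1% CAGCTG and 7.93% TGANTCA. Of the 43 tested members with a promoter there, 11 (25.6%), 9 (20.9%) and 2 (4.65%) did. These are matches of letters in a window and show no binding.

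Of the other 6 genes of the class of Kcnn3 and Kcnn4, 3 were tested. All 3 were lower after injury than in fixed cells, as were 47.3% of all genes. Kcnma1, the large conductance channel opened by calcium and voltage, went from 15.0 and 13.8 FPKM in PFA-perfused, 6.00 and 7.73 in PBS-perfused and 6.69 and 5.42 in unperfused cells to 0.192 and 0.112 after injury (-2.61 ± 0.20 against unperfused cells; -3.74 ± 0.20 against PFA-perfused cells). Its calls in PBS-perfused (-0.98 ± 0.20) and unperfused cells (-1.13 ± 0.20) against PFA-perfused cells were lost after scaling (-0.46 and -0.16). Kcnt2, opened by sodium, lay between 2.48 and 5.36 in uninjured muscle and at 0.169 and 0.162 after injury (-2.01 ± 0.23 against unperfused). Kcnn1, another small conductance channel, fell from 3.54 and 4.02 in PFA-perfused to 0.160 and 0.702 in unperfused cells (-1.76 ± 0.28). Its call in PBS-perfused cells (-1.24 ± 0.28) was lost after scaling (-0.80), and the difference was -0.81 without PBS-perfused replicate 1.

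Tandem pore potassium channels carry background currents. Of 14 genes 4 were tested: 2 were higher and none lower in PBS-perfused than in fixed cells, and 2 were higher and 1 lower in unperfused and in injury-activated cells. Of all genes 17.8% were higher and 46.2% lower in PBS-perfused, 17.4 and 56.3% in unperfused, and 26.1 and 47.3% in injury-activated cells. Kcnk5, sensitive to acid and cell volume, stood at 0.349 and 0.489 FPKM in PFA-perfused, 1.53 and 3.33 in PBS-perfused, 3.92 and 2.71 in unperfused, and 24.0 and 25.5 in injury-activated cells. It was higher in each comparison, by 1.22 ± 0.27 (adjusted p = 0.0036), 1.59 ± 0.27 (adjusted p = 5.4e-04), 4.18 ± 0.27 (injury-activated against PFA-perfused, adjusted p = 1.6e-06) and 2.59 ± 0.27 (injury-activated against unperfused, adjusted p = 2.8e-05), in all 12 alternatives. Kcnk10, a channel opened by stretch and lipids, was listed at 0 in each of the fixed libraries, at 1.44 and 0.803 in PBS-perfused, 5.54 and 3.66 in unperfused, and 0.188 and 0.283 in injury-activated cells. It was called higher in PBS-perfused (adjusted p = 0.0018) and unperfused cells (adjusted p = 8.2e-06) than in fixed cells, and fell from unperfused to injury-activated cells (-2.16 ± 0.21). Kcnk2, of the same subfamily, reached 1.65 and 1.48 after injury and at most 0.383 elsewhere. Kcnk1 stood at 0.574 and 1.51 in PFA-perfused, 1.45 and 0.294 in PBS-perfused and 0 in both unperfused libraries. It was called lower in unperfused (adjusted p = 0.0125) and injury-activated cells than in fixed cells, and both calls were lost with no filter, the first also without either unperfused library.

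Voltage-gated potassium channels were the largest class and among the least detected. Of 40 genes 6 were tested and 33 stayed below 1 FPKM, and no tested member of the class exceeded the 4.37 FPKM of Kcna1. Kcnh2, known for repolarisation of the heart, fell from 2.06 and 1.68 in fixed cells to 0.0846 and 0.359 in PBS-perfused cells (-1.24 ± 0.15) and was at most 0.0145 in the other 4 libraries. Kcns3, a silent modulatory subunit, fell from 2.12 and 1.94 in fixed to 0.206 and 0.310 in unperfused cells (-1.27 ± 0.15), and Kcna2 from 1.19 and 1.92 to 0.222 and 0.106 (-1.12 ± 0.17; below the filter after scaling). Kcnq5 was the only tested member of the class that rose after injury, from 0.0852 and 0.172 in unperfused to 1.97 and 1.54 (1.28 ± 0.14). Kcna1, a channel of axons and their glia, stood at 1.23 and 2.46 in PFA-perfused and 4.37 and 2.75 in PBS-perfused cells. That difference (0.69 ± 0.25, adjusted p = 0.038) was at 0.37 without PFA-perfused replicate 1 and at 0.43 without PBS-perfused replicate 1, and the call was lost in both, without any 1 of the unperfused or injury-activated libraries, with no filter and with a pseudocount of 0.1. The 9 glial markers summed to 312 and 191 FPKM in PFA-perfused and 169 and 158 in PBS-perfused cells, and of 6 tested 1 was higher and 1 lower in PBS-perfused cells. Their part in the level of Kcna1 was not tested.

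Among auxiliary potassium channel subunits, Kcne1l, an inhibitory subunit, was highest in fixed cells at 7.94 and 6.42 FPKM. It stood at 1.03 and 1.44 in PBS-perfused, 0.628 and 0.559 in unperfused, and 0.0941 and 0.0355 in injury-activated cells, and fell in each comparison (-1.87 ± 0.17, -2.35 ± 0.17 and -2.94 ± 0.17 against PFA-perfused cells). Its call after injury against unperfused cells (-0.58 ± 0.17) was lost without unperfused replicate 1 (-0.55) or either injury-activated library (-0.62 and -0.54). Kcne4 differed between the libraries of a group, at 5.78 and 1.45 in PFA-perfused and 7.35 and 2.40 in PBS-perfused cells. It was at 0.240 and 0.236 after injury (-1.72 ± 0.50 against PFA-perfused), a call lost with no filter and without PFA-perfused replicate 1 (-0.98). Kcnip3, a calcium-binding subunit that also acts as a transcriptional repressor, rose after injury to 3.43 and 1.87 from at most 0.0845 elsewhere (1.77 ± 0.19 against unperfused). Kcnmb3 was highest in unperfused cells, at 1.06 and 1.3 against at most 0.307 elsewhere (0.99 ± 0.13 against PFA-perfused). Kcnab2 lay between 0.738 and 1.53 in uninjured muscle and at 0.336 and 0.279 after injury (-0.84 ± 0.15 against unperfused).

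Of 15 inward rectifier genes 2 were tested. Kcnj8, the pore of a channel closed by ATP and a gene known in pericytes, stood at 1.06 and 4.17 FPKM in PFA-perfused, 2.64 and 1.76 in PBS-perfused, 0.242 and 0.227 in unperfused, and 0 and 0.0128 in injury-activated cells. It fell in unperfused cells (-1.40 ± 0.35; -0.74 without PFA-perfused replicate 2) and after injury (-1.70 ± 0.35; -1.03 without that library). Abcc9, which encodes the partner subunit, stood at 11.2 and 25.4, 12.4 and 12.6, 7.44 and 7.57, and 2.59 and 0.0484 FPKM across these groups. The 10 mural markers, Abcc9 among them, summed to 782 and 693 FPKM in PFA-perfused, 317 and 519 in PBS-perfused, 252.5 and 237 in unperfused, and 100.3 and 82.0 in injury-activated cells. Notch3, Des and Acta2 carried these sums. Notch3 stood at 433 and 386, 61.7 and 140, 72.6 and 82.3, and 4.30 and 3.93 FPKM across these groups. Like Pax7, it was highest in fixed and lowest in injury-activated cells. Whether this RNA came from mural cells was not tested. Of the 10 markers 1 was higher and 3 lower in unperfused than in fixed cells (4 and 2 after scaling), and 1 and 7 after injury. Rgs5, a pericyte marker, stood at 2.68 and 2.02 in fixed, 46.3 and 17.0 in PBS-perfused and 11.3 and 11.4 in unperfused cells, higher in both, and at 0.352 and 0.219 after injury. The part of these cells in the fall of Kcnj8 was not tested. Kcnj12, an inward rectifier of muscle, rose after injury to 1.47 and 1.86 from 0.534 and 0.610 in unperfused cells (0.76 ± 0.16, adjusted p = 0.0026), a call lost with a pseudocount of 0.1 (adjusted p = 0.087).

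Both tested pores of voltage-gated calcium channels were highest in fixed cells, but Cacna1a passed the filter through those cells alone. Cacna1d, an L-type pore, stood at 3.92 and 4.88 FPKM in PFA-perfused, 1.87 and 1.39 in PBS-perfused, 1.67 and 1.39 in unperfused, and 0.0172 and 0.00385 in injury-activated cells. It fell in PBS-perfused cells (-1.04 ± 0.17) and after injury (-1.32 ± 0.17 against unperfused), and its call in unperfused cells (-1.09 ± 0.17) was lost after scaling (-0.32). Cacna1a, a pore of nerve terminals, fell from 3.18 and 1.77 in fixed cells to at most 0.507 in the other 6 libraries (-1.28 ± 0.19 in PBS-perfused and -1.58 ± 0.19 in unperfused cells). The other 8 pore genes stayed below 1 FPKM. Cacna1d shares 587 exon bases with Chdh on the opposite strand, which was at most 0.361 FPKM.

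Auxiliary calcium channel subunits split after injury. Cacng1, the gamma subunit of the skeletal muscle channel, stood at 3.15 and 12.8 FPKM in PFA-perfused, 0.159 and 1.55 in PBS-perfused, 1.3 and 0.629 in unperfused, and 47.7 and 38.7 in injury-activated cells. It rose by 4.51 ± 0.54 over unperfused cells (adjusted p = 6.3e-05) and by 2.54 ± 0.54 over PFA-perfused cells (adjusted p = 0.0021; 1.68 without PFA-perfused replicate 1). Its call in PBS-perfused cells (-2.14 ± 0.54) was lost without PBS-perfused replicate 1 (-1.57) and was at -1.27 without PFA-perfused replicate 2. Its call in unperfused cells (-1.97 ± 0.54) was lost after scaling (-1.25), with no filter, and without PFA-perfused replicate 2 (-1.10) or unperfused replicate 2 (-1.72). Of 8 tested myofibre markers 6 were higher after injury than in unperfused cells and none lower. Myl1 stood at 16.7 and 14.5 FPKM against 0.581 and 0.308, while of the adult myosins Myh1 was at 1.01 and 0.824 and Myh2, Myh4 and Myh7 at or below 0.176 in the injury-activated libraries. Actn3 was lower after injury than in fixed cells (-1.90 ± 0.31), and no marker of the myofibre list was at 0 after injury. Their part in the rise of Cacng1 was not tested. Cacna2d1 and Cacnb1, partners of the same channel, fell instead, from 3.06 and 2.95 to 1.32 and 1.21 (-0.82 ± 0.16) and from 0.676 and 0.806 to 0.184 and 0.197 FPKM (-0.55 ± 0.17). The Cacnb1 call was lost without unperfused replicate 2 (-0.49) or either injury-activated library (-0.54 and -0.56). Cacna2d4 was listed at 0 in both injury-activated libraries and at 1.82 and 1.62 in unperfused cells (adjusted p = 0.0070; lost without unperfused replicate 1). Cacnb3 was highest in unperfused cells, at 1.91 and 2.09 (0.92 ± 0.25 against PFA-perfused), a call lost without PFA-perfused replicate 1 (0.55) and without unperfused replicate 2 (0.87).

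Of 14 sodium channel genes 3 were tested and 9 stayed below 1 FPKM in every library. Scn7a, a sodium-sensing relative of the voltage-gated pores, was highest in unperfused cells at 2.37 and 1.89 (1.18 ± 0.18 against PFA-perfused). Of 6 tested glial markers 5 were lower in unperfused than in fixed cells, a comparison in which 56.3% of all genes were lower. The glial markers summed to 77.05 and 60.3 FPKM in unperfused cells, with Pmp22 at 70.1 and 55.0. Their part in the level of Scn7a was not tested. Scn4a, the pore of adult fibres, was at most 0.0616 FPKM.

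**Figure D5:**
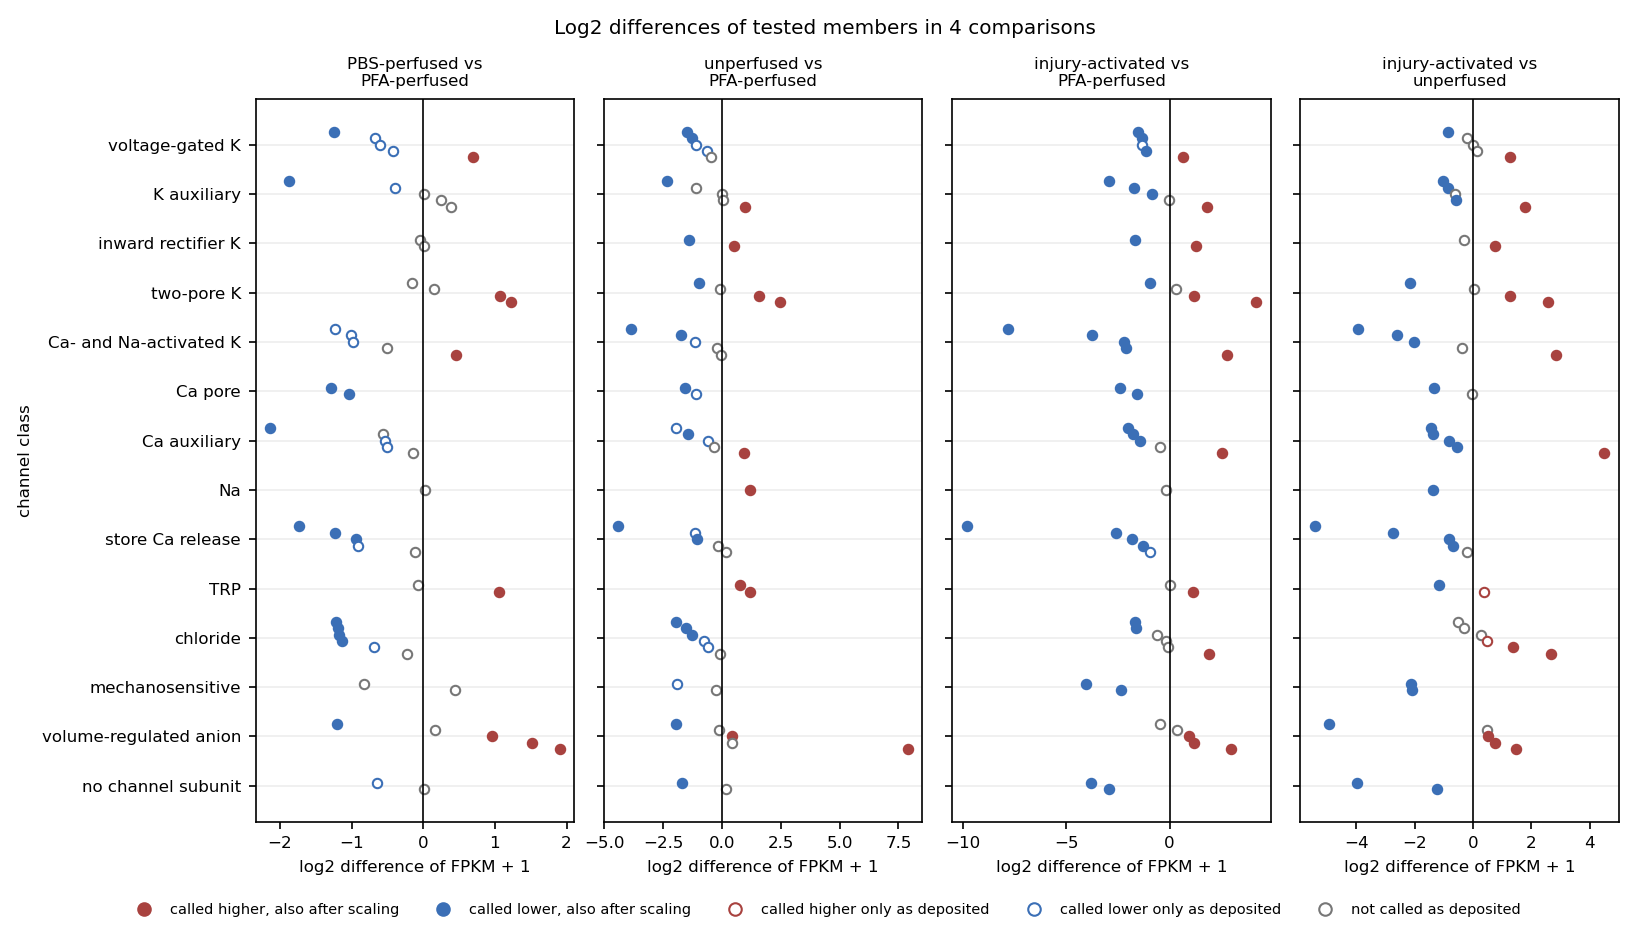
Log2 difference of FPKM + 1 for the tested members (points; 3 of 54 are not shown) by channel class in 4 comparisons, each with its own axis range. Filled points were called both as deposited and after scaling, coloured open points only as deposited (Kcna2 was not tested after scaling), and grey points were not called as deposited. Farthest below 0 is Cacng1 in PBS-perfused against PFA-perfused cells, and Ryr3 in each other panel. Farthest above 0 against PFA-perfused cells are Lrrc8c in PBS-perfused, Lrrc8a in unperfused and Kcnk5 in injury-activated cells. In injury-activated against unperfused cells Cacng1 is farthest above 0, and Lrrc8a lies below 0.

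Both Piezo genes fell after injury. Piezo1 stood at 37.8 and 33.8 FPKM in PFA-perfused, 37.8 and 63.4 in PBS-perfused, 31.8 and 28.2 in unperfused, and 6.53 and 5.98 in injury-activated cells. Piezo1 fell after injury (-2.34 ± 0.26 against PFA-perfused, adjusted p = 3.6e-05; -2.09 ± 0.26 against unperfused, adjusted p = 8.0e-05). It was not called in PBS-perfused (0.45 ± 0.26) or unperfused cells (-0.25 ± 0.26) against fixed cells, but after scaling it was called higher in both (0.99 and 0.80), and it was also called higher in PBS-perfused cells without PBS-perfused replicate 1 (0.81). Piezo1 shares 990 exon bases with Ctu2 on the opposite strand, and without strand information their reads cannot be told apart there. Ctu2 lay at 40.0 and 37.1, 29.2 and 52.0, 9.17 and 6.19, and 3.66 and 3.24 FPKM across these groups. Piezo2, the touch receptor of sensory neurons, stood at 19.0 and 46.6 in PFA-perfused, 17.3 and 15.7 in PBS-perfused, 7.41 and 6.85 in unperfused, and 0.599 and 1.21 in injury-activated cells. Piezo2 fell after injury (-4.04 ± 0.36 against PFA-perfused, -2.11 ± 0.36 against unperfused). Its call in unperfused against fixed cells (-1.93 ± 0.36) was lost after scaling (-0.93). The difference in PBS-perfused cells (-0.82 ± 0.36) was not called, but was without PFA-perfused replicate 1 (-1.45).

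Of 21 transient receptor potential genes 2 were tested. Trpm7, a channel fused to a kinase that carries magnesium, stood at 4.42 and 11 FPKM in PFA-perfused, 6.52 and 6.81 in PBS-perfused, 13.9 and 21.8 in unperfused, and 7.44 and 6.93 in injury-activated cells. It was higher in unperfused than in fixed cells (1.19 ± 0.36, adjusted p = 0.013) and fell from unperfused to injury-activated cells (-1.17 ± 0.36, adjusted p = 0.015). The first call was lost without PFA-perfused replicate 1 (0.62), the second without injury-activated replicate 2 (-1.13), and both with no filter and without unperfused replicate 2 (0.89 and -0.87). Trpv2, a channel of macrophages and muscle, was lowest in fixed cells, at 0.0480 and 0.235 against 0.807 to 1.54 in the other 6 libraries. It was called higher in PBS-perfused (1.06 ± 0.15), unperfused (0.76 ± 0.15) and injury-activated cells (1.15 ± 0.15) in all 12 alternatives. The haematopoietic markers summed to 7.87 and 7.68 FPKM in fixed cells and 26.8 to 73.0 in the other groups. Of 6 tested, 5 were higher and none lower in PBS-perfused and 6 higher in injury-activated cells. In unperfused cells 1 was higher and 1 lower: Cd68 made up most of the sum (32.1 and 23.0 FPKM), and Lyz2 fell. Their part in the level of Trpv2 was not tested.

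The Clcn family, mostly exchangers of chloride for protons in endosomes and lysosomes, was expressed in all groups. Clcn7, of the lysosome, stood at 58.9 and 53.5 FPKM in PFA-perfused, 23.8 and 23.4 in PBS-perfused, 14.8 and 12.4 in unperfused, and 16.6 and 16.8 in injury-activated cells. It fell in the 3 groups against fixed cells (-1.22 ± 0.19, -1.98 ± 0.19 and -1.69 ± 0.19; -0.67, -0.94 and -0.89 after scaling). Clcn5, of early endosomes, went the other way after injury: 7.90 and 8.78 in PFA-perfused, 2.83 and 3.47 in PBS-perfused and 5.45 and 3.70 in unperfused cells, and 34.6 and 33.2 in injury-activated cells. The rise was 2.66 ± 0.22 over unperfused (adjusted p = 7.3e-06) and 1.90 ± 0.22 over fixed cells (adjusted p = 4.4e-05). Its fall in PBS-perfused cells (-1.17 ± 0.22) was kept after scaling (-0.68), while the call in unperfused cells (-0.76 ± 0.22) turned to 0.16 and was not made without PFA-perfused replicate 2 (-0.69) or unperfused replicate 2 (-0.53). Clcn3 fell from 7.19 and 7.07 in fixed cells to 2.53 and 2.90 in PBS-perfused and 2.15 and 1.46 in unperfused cells. Both calls (-1.13 ± 0.19 and -1.54 ± 0.19) were kept in all 12 alternatives. Injury-activated cells, at 6.22 and 6.13, were higher than unperfused cells (1.36 ± 0.19). They lay near fixed cells (-0.18 ± 0.19, not called, but 0.53 and called higher after scaling). Clcn6 stood at 3.88 and 4.02 in fixed and 0.990 and 1.37 in PBS-perfused cells (-1.19 ± 0.17). Its calls in unperfused against fixed cells (-0.57 ± 0.17) and after injury against unperfused cells (0.48 ± 0.17) were lost after scaling (0.23 and 0.31), the first also without PFA-perfused replicate 2 (-0.56) and the second without any 1 of the unperfused or injury-activated libraries (0.43 to 0.54) and with a pseudocount of 0.1. Clcn4-2 lay between 25.7 and 48.1 in all 8 libraries and was not called as deposited. After scaling it was higher in unperfused than in fixed cells (0.94) and lower after injury than in unperfused cells (-0.76). Clcn2, a channel of the cell surface, fell from 2.32 and 2.28 in fixed to 0.486 and 0.228 in unperfused cells (-1.29 ± 0.20).

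Lrrc8 subunits form the anion channel that opens when cells swell, and Lrrc8a is the subunit it cannot do without. Lrrc8a stood at 1.95 and 1.98 FPKM in PFA-perfused, 7.02 and 3.17 in PBS-perfused, 595 and 836 in unperfused, and 21.8 and 22.4 in injury-activated cells. The unperfused libraries thus lie far above the other 6. The difference was 7.90 ± 0.31 between unperfused and fixed cells (adjusted p = 5.5e-07), 2.96 ± 0.31 between injury-activated and fixed cells (adjusted p = 2.6e-05) and -4.93 ± 0.31 between injury-activated and unperfused cells (adjusted p = 1.9e-06), in all 12 alternatives. The PBS-perfused call (0.96 ± 0.31) was lost with no filter, without either PFA-perfused library (0.96 and 0.97) and without PBS-perfused replicate 1 (0.49). Lrrc8a shares 2853 exon bases on its own strand with the annotated gene Gm28035, so its value is uncertain where reads could be split. Its neighbours Phyhd1 (3.79 and 3.51 FPKM in unperfused cells), Dolk (14.2 and 8.9) and Endog (0.166 and 0.161) were not high in these libraries.

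The partner subunits showed no such peak in unperfused cells. Lrrc8c stood at 0.372 and 0.0508 FPKM in PFA-perfused and 4.75 and 2.50 in PBS-perfused cells (1.90 ± 0.25, adjusted p = 2.5e-04, in all 12 alternatives). Lrrc8c was also called higher in injury-activated than in PFA-perfused cells, in all 12 alternatives. Its call after injury against unperfused cells was lost in at least 1 alternative, and it was not called in unperfused against PFA-perfused cells. Lrrc8b stood at 0.604 and 0.228 in PFA-perfused and at 1.59 and 5.26 in PBS-perfused cells (1.52 ± 0.35, adjusted p = 0.0046), its only call as deposited. Lrrc8b was not tested without either PBS-perfused library, since it then passed 1 FPKM in fewer than 2 libraries. Markers of 3 other cell types were called higher in the same comparison: 10 of 11 tested endothelial markers, 6 of 9 fibro-adipogenic markers (2 lower) and 5 of 6 haematopoietic markers. The 10 fibro-adipogenic markers summed to 1162 and 682 FPKM in fixed and 484 and 648 in PBS-perfused cells, mostly from Dpt, Gsn and Cd34. Whether the RNA of Dpt, Gsn and Cd34 came from fibro-adipogenic cells was not tested, so the sum is no measure of such cells. The 2 lower were Dpt, at 633 and 318 against 69.4 and 260, and Cd34, at 181 and 128 against 66.0 and 48.7. Dcn, among the 6 higher, stood at 5.43 and 2.71 against 44.8 and 48.7. No marker of the 3 lists was at 0 in PBS-perfused cells, and their part in these rises was not tested. Lrrc8d fell from 5.56 and 2.86 in fixed to 0.907 and 1.5 in PBS-perfused (-1.21 ± 0.26) and 0.344 and 0.262 in unperfused cells (-1.95 ± 0.26), and was higher again after injury at 2.87 and 2.38 (1.47 ± 0.26 against unperfused). Lrrc8e was highest after injury at 1.58 and 1.23 (0.92 ± 0.15 against PFA-perfused). Its calls in unperfused cells (0.42 ± 0.15) and after injury against unperfused cells (0.50 ± 0.15) were lost without 1 or more single libraries.

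The 2 tested symbols that name no channel subunit fell after injury. Kcnq1ot1, the imprinted non-coding RNA that overlaps Kcnq1, lay between 29.7 and 51.4 FPKM in uninjured muscle and at 1.85 and 1.76 after injury (-3.97 ± 0.32 against unperfused; called higher in unperfused than in fixed cells after scaling only, 1.22). Kcnq1 itself was at most 0.00768 FPKM. Trpc4ap stood at 38.1 and 32.1 in PFA-perfused, 9.94 and 10.3 in unperfused, and 3.77 and 3.64 in injury-activated cells (-1.24 ± 0.22 against unperfused).

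Other genes of ion transport were counted with the same fit. Of 20 tested genes of calcium stores, entry and pumps, 4 were higher and 12 lower in PBS-perfused than in fixed cells, 5 and 10 in unperfused than in fixed cells, 5 and 13 in injury-activated than in fixed cells, and 3 and 10 in injury-activated than in unperfused cells. Of all genes 17.8% were higher and 46.2% lower in the first comparison, 17.4 and 56.3% in the second, 26.1 and 47.3% in the third, and 40.8 and 29.3% in the fourth. After scaling the list's numbers were 5 and 5, 9 and 5, 7 and 8, and 3 and 10. Atp2a2, the calcium pump that refills the stores, stood at 11.5 and 11.5 FPKM in PFA-perfused, 106 and 82.9 in PBS-perfused, 81.5 and 64.2 in unperfused, and 34.1 and 30.0 in injury-activated cells, a rise of 2.93 ± 0.22 in PBS-perfused cells. Orai3, a pore of store-operated entry, fell from 18.9 and 14.9 in fixed to 4.10 and 4.46 in PBS-perfused cells (-1.75 ± 0.23). Micu3, a regulator of the mitochondrial calcium channel, peaked in unperfused cells at 113 and 170 against 2.17 to 5.25 in the other 6 libraries (4.55 ± 0.23 against PFA-perfused), as Lrrc8a did. These genes were singled out after their values were seen.

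Of 12 tested sodium, potassium and chloride transporters 3 were higher and 6 lower after injury than in unperfused cells, the same numbers after scaling, where 40.8% of all genes were higher and 29.3% lower as deposited. Fxyd1, a regulator of the sodium pump, fell from 38.1 and 25.9 to 1.24 and 1.18 (-3.87 ± 0.23). Of 23 tested channel genes of other families 9 were higher and 9 lower after injury than in unperfused cells (9 and 10 after scaling), to be read against the same shares of all genes. Subunits of the acetylcholine receptor of muscle were among both. Chrna1 rose from 31.5 and 17.6 to 409 and 426 FPKM (4.09 ± 0.33), Chrnd from 1.56 and 1.20 to 105 and 97.0 (5.42 ± 0.30) and Chrng, the embryonic subunit, from 1.15 and 0.203 to 83.5 and 70.0 (5.59 ± 0.52). Chrnb1 was at 94.0 and 76.2 in unperfused and 53.8 and 48.9 in injury-activated cells (-0.71 ± 0.24), a call lost without unperfused replicate 1 (-0.56) or either injury-activated library (-0.78 and -0.64). These 5 were likewise singled out after their values were seen.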

How the data were processed

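The deposited table gives 1 value per gene symbol for 8 polyA RNA libraries. The file header names no unit. The deposited values were read as FPKM because they are decimals with totals that differ between libraries and StringTie is among the tools listed. Per the submitters' processing notes, STAR 2.5.3a, StringTie 1.3.3, R 3.4.1 and mm9 were used, with no roles given. Libraries were made without strand marking.

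From these values, log2(FPKM + 1) of the 12515 symbols at 1 FPKM or more in at least 2 libraries was fitted with limma 3.58.1 (R 4.3.3, intensity trend), all 8 libraries in 1 model, for 4 comparisons. Two-sided p-values were adjusted by Benjamini-Hochberg over all tested genes. The 12 alternatives were a replicate block, trimmed mean scaling (trims 0.3 and 0.05), a pseudocount of 0.1, no filter, and leaving out each library. The code was tested on simulated data. Exon overlaps are from GENCODE M21.

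Members and lists were chosen with earlier results of these data known. Genes were named if they were among 26 anchor channels, among the 2 members of a class with the highest mean, or among the 8 largest rises or falls of a comparison (called, groups not overlapping, higher group at 2 FPKM or more). A few genes are counted but not reported here. Other members were named after their values were seen.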

Additional observations from a re-analysis of the deposited data

How the results depend on the processing

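The number of members higher in PBS-perfused than in PFA-perfused cells was 8, against 19 with no filter and 5 to 7 when 1 library was left out. The number lower was 26, and 14 after trimmed mean scaling. In unperfused against PFA-perfused cells 10 were higher, against 16 after scaling, 17 with no filter and 5 to 10 when 1 library was left out, and 29 were lower, against 17 after scaling. With no filter, members below 1 FPKM were fitted as well, so 19 and 17 are not counts out of 54. No share was computed for this setting, so the larger counts do not show that a larger share of members rose. In injury-activated cells the numbers higher, 12 against PFA-perfused and 14 against unperfused cells, were 6 to 12 and 5 to 14 when 1 library was left out, with the lowest without either injury-activated library. There, 6 and 4 of the calls had no value, since their genes then passed 1 FPKM in fewer than 2 libraries, and 0 and 5 were lost in at least 1 alternative. After scaling, the difference between unperfused and PFA-perfused cells turned to 0.25 for Cacna2d1, 0.94 for Clcn4-2, 0.16 for Clcn5, 0.23 for Clcn6, 0.60 for Kcnab2, 0.80 for Piezo1 and 0.36 for Stim1. That between injury-activated and PFA-perfused cells turned to 0.53 for Clcn3 and 0.54 for Clcn6. Kcnj8 in PBS-perfused cells was at -0.70 without PFA-perfused replicate 1 and at 0.62 without PFA-perfused replicate 2. The cause of these changes was not tested. Same-numbered libraries deviated together at r = -0.0467 to 0.117, so they share only a number. With the replicate number as a block, 8 members were higher and 25 lower in PBS-perfused, 10 and 30 in unperfused and 12 and 33 in injury-activated against PFA-perfused cells, and 13 and 25 in injury-activated against unperfused cells. Groups of 2 libraries and an unknown read depth limit all values, most for members near 1 FPKM.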
